A study of Mus musculus with 96 samples.

Results

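The genes described here encode 10 channels of the transient receptor potential (TRP) family that have been tied to temperature sensing: Trpm2, Trpm8, Trpa1, Trpv1, Trpv2, Trpc1, Trpc4, Trpc5, Trpm3 and Trpm4. They were taken by name from a table of 24054 genes, which holds all 10, and read in each of 96 single neurons of the mouse preoptic area. The neurons had been patch-clamped in slices, were then picked with a glass pipette, and were sequenced with Smart-seq2, a method that copies whole transcripts of 1 cell. All cells came from C57BL/6N mice aged 2 to 3 months, and the labels name no animal, slice or recording day. By the temperature class in the labels there were 21 warm-sensitive, 5 cold-sensitive, 10 silent sensitive, 24 insensitive and 18 silent insensitive cells. The labels do not define silent. A further 18 cells are labelled as of unknown class and entered no comparison.

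TRP channels are cation channels that let sodium and calcium into the cell. In sensory nerve endings of the skin, TRPV1, TRPM3 and TRPA1 are known for responses to painful heat and irritants, and TRPM8 for responses to cold and menthol. The preoptic area of the hypothalamus holds neurons that change their firing with local temperature, and TRPM2 has been described as a heat sensor of such neurons in mice. TRPC channels open downstream of Gq-coupled receptors and phospholipase C.

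Because no label ties cells to animals, the cells of a class cannot serve as replicates, and the differences below are descriptions without p-values. A value is either the number of cells with any count of a gene or the number at 10 CPM or more, where CPM is the count per 1000000 counts of the cell over all genes. In these libraries 10 CPM stood for 4.65 to 36.6 counts. Intervals are exact at the 95% level (Clopper-Pearson for shares, Poisson for summed counts) and cover at most counting error. They treat cells, or single counts, as independent draws, which the labels cannot show. Differences between animals are not covered, nor, for summed levels, differences between cells.

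Total counts ran from 465167 to 3660726 per cell, and Rn45s, the ribosomal RNA precursor, took 53.2% of all counts. The median cell had 314892 counts outside Rn45s among warm-sensitive cells, 734507 among cold-sensitive, 415420 among silent sensitive, 761928 among insensitive and 362457 among silent insensitive ones. The neuronal marker Snap25 was at 10 CPM or more in 92 of 96 cells. Markers of glia were also present: summed over 11 microglial genes, the median was 586.9 CPM per cell, with a range of 2.00 to 25164 CPM.

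Each of the 10 genes was without a count in most cells. Of 960 pairs of gene and cell, 95 held a count, 51 reached 10 CPM and 23 rested on 1 count. A count was present in some cell for 9 of the 10 genes, 7 reached 10 CPM in some cell, and 1, Trpv2, did so in 10 or more cells. Counted over all 96 cells, any count was found for Trpm3 in 22 cells, Trpv2 in 17, Trpc5 in 15, Trpm2 and Trpc1 in 14 each, Trpc4 in 8, Trpa1 and Trpm4 in 2 each, Trpm8 in 1 and Trpv1 in 0. At 10 CPM or more the counts of cells were 13 for Trpv2, 9 for Trpc5, 9 for Trpc1, 8 for Trpm2, 7 for Trpm3, 4 for Trpc4 and 1 for Trpa1. The lowest and the median level were 0 CPM in every class for every one of the 10 genes, except that the median of Trpv2 in cold-sensitive cells was 1.16 CPM. The sentences below therefore give the cells above 0.

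**Figure D1:**
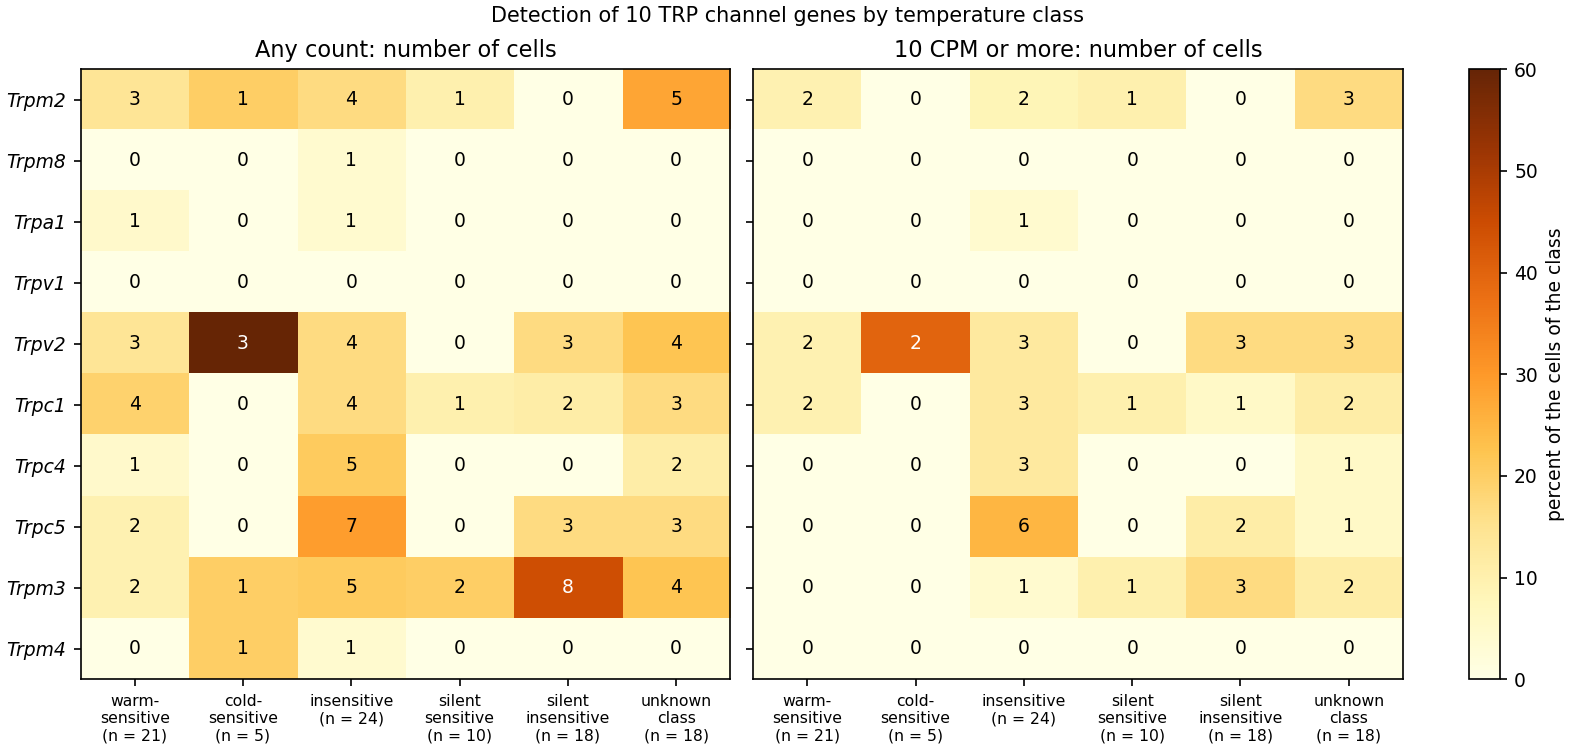
Number of cells of each temperature class (columns, n below each) with any count (left) and at 10 CPM or more (right) of each TRP gene (rows); colour gives the percent of the cells of the class. Trpv1 is at 0 in every class, Trpc5 reaches 10 CPM in 6 insensitive, 2 silent insensitive and 0 sensitive cells, and Trpm3 has a count in 8 of 18 silent insensitive cells.

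Levels of different genes can be compared only per length of transcript. Summed over all 96 cells and divided by the length of all annotated exons, the level of Trpv2 was 2.44 CPM per kb, followed by Trpc5 at 1.58 and Trpc4 at 0.78 CPM per kb. Trpc1 was at 0.41, Trpa1 at 0.32, Trpm2 at 0.232 and Trpm3 at 0.232 CPM per kb, so that Trpm2 and Trpm3 cannot be ordered. Trpm8 was at 0.015, Trpm4 at 0.010 and Trpv1 at 0 CPM per kb. Single cells carried much of these sums: the highest cell held 99.5% of the Trpa1 counts, 43.8% of those of Trpc4, 39.7% of Trpm2, 39% of Trpm3, 26.8% of Trpv2, 26.3% of Trpc5 and 18.8% of Trpc1. The length of Trpm3, 24437 bases of exon, pools all of its annotated isoforms. By the summed level without length, Trpv2 stood at rank 7100 of 24054 genes and Trpm8 at rank 14619.

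Among the warmth and heat receptors, Trpm2, the channel gated by ADP-ribose and oxidative signals, lies on chromosome 10 from 77907722 to 77970563 on the minus strand of mm10. It reached 10 CPM in 2 of 21 warm-sensitive cells, at 39.8 and 18.2 CPM, and a further cell held 1 count. In cold-sensitive cells it was at 0.639 CPM in 1 cell, from 1 count, and at 0 in the other 4. One of 10 silent sensitive cells held 48.0 CPM. Of 24 insensitive cells, 2 were above the threshold at 43.7 and 11.2 CPM and 2 below it at 3.34 and 1.15 CPM, while 0 of 18 silent insensitive cells held a count. That 0 of 18 allows a share of up to 16.7% by a limit of 3 cells, with an exact upper bound of 18.5%. The Trpm2 share at 10 CPM or more was 9.52% in warm-sensitive (95% interval 1.17 to 30.4%) and 8.33% in insensitive cells (1.03 to 27%), and the groups overlapped. Cells of unknown class held Trpm2 most often, with 5 of 18 above 0 and 3 above 10 CPM, up to 42.9 CPM.

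Trpm2 is also a gene of microglia. Of the 14 cells with a Trpm2 count, 6 were at 10 CPM or more of the microglial gene Cx3cr1, against 20 of all 96 cells, and the median sum of microglial markers was 1004 CPM in these 14 cells, against 586.9 CPM over all cells. In the same 14 cells the enzyme of GABA synthesis Gad1 was at 10 CPM or more in 10, against 53 of 96, and Snap25 in 14 of 14. How much of the Trpm2 RNA came with microglial RNA was not tested.

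Trpm3, a receptor of heat and of the steroid pregnenolone sulfate, lies on chromosome 19 from 22139046 to 22995410 on the plus strand. It had a count in more cells than any other of the 10 genes, though mostly at low levels: 15 of its 22 cells stayed under 10 CPM. In warm-sensitive cells it had 1 count in each of 2 cells. One cold-sensitive cell held 2.19 CPM. Silent sensitive cells held 120.7 CPM in 1 cell and 0.895 CPM in another. Insensitive cells held counts in 5 cells, with 18.2 CPM the highest and 6.14 CPM the next. Silent insensitive cells held it most often: 8 of 18 had a count, 3 of them at 230.2, 21 and 13.8 CPM and 5 between 1.2 and 8.60 CPM. Set side by side, any count of Trpm3 was found in 20% of silent sensitive (2.52 to 55.6%) and 44.4% of silent insensitive cells (21.5 to 69.2%), intervals that overlap. At 10 CPM or more the shares were 10% in silent sensitive and 16.7% in silent insensitive cells, a difference of -6.67 points, which was also that of the median gene. The difference was 3.57 points within title letters and 4.44 points with DESeq2 size factors, so its direction turned under those settings. It was -16.7 points without silent sensitive cell 7, and -18.9 to -47.1 points at 1 or 5 counts, without Rn45s in the totals, when thinned, and without cells over 75% Rn45s, past the 10 points that count as a call. Antisense and non-coding genes on the opposite strand cover 1.13% and 1.44% of the exon bases of Trpm3. Of the 22 cells with a Trpm3 count, 7 were at 10 CPM or more of Ttr, a gene of the choroid plexus, against 17 of 96 cells. Summed over 7 ependymal and choroid plexus markers the median was 8.58 CPM in these 22 cells and 1.5 CPM over all cells, and the part of that RNA in the Trpm3 counts was not tested.

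Trpv1, the receptor of capsaicin, had no count in any cell. By the limit of 3 cells, 0 of 96 allows a share of up to 3.13% (exact upper bound 3.77%), and 0 of 21 warm-sensitive cells up to 14.3% (exact 16.1%). Summed over all cells, a count of 0 allows up to 0.0219 CPM.

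Trpv2, a relative of TRPV1 with a higher heat threshold, lies on chromosome 11 from 62574486 to 62600515 on the plus strand. Warm-sensitive cells held 229.9 CPM in cell 21, 48.0 CPM in cell 14 and 1 count in cell 19. Cold-sensitive cells held 26.7, 12.8, 1.16, 0 and 0 CPM. No silent sensitive cell held a count. Insensitive cells held 89.5, 50.9, 23.4 and 2.73 CPM in 4 cells, and silent insensitive cells 169.8, 112.1 and 100.8 CPM in 3. The 3 silent insensitive cells with Trpv2 thus lay above all sensitive cells except 1 warm-sensitive cell. The ranges of warm-sensitive, cold-sensitive and insensitive cells overlapped. The share of cells at 10 CPM or more was 11.1% in all sensitive (3.11 to 26.1%) and 14.3% in all insensitive cells (5.43 to 28.5%). The summed level was 8.46 CPM in sensitive (7.67 to 9.32) and 8.61 CPM in insensitive cells (7.89 to 9.37).

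Trpm4, a calcium-activated channel whose opening grows with warmth, was found in cold-sensitive cell 1 at 8.94 CPM, from 14 counts, and in insensitive cell 18 from 1 count. These 2 cells had microglial marker sums of 11555 and 10689 CPM, against a median of 586.9 CPM over all cells. Whether the Trpm4 RNA came from such cells was not tested.

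Trpm8 and Trpa1 were found in 1 and 2 of the 96 cells. Trpm8, the menthol receptor, had 10 counts in insensitive cell 17, which made 7.77 CPM, and no count in the other cells, so that 0 of 5 cold-sensitive cells held it. With so few cells the exact upper bound of that share is 52.2%, and the limit of 3 cells gives 60%. An antisense gene on the opposite strand covers 8.2% of the exon bases of Trpm8. The sources used here do not say whether strand was counted. Trpa1, the receptor of mustard oil, had 188 counts in insensitive cell 22, at 149.4 CPM, and 1 count in warm-sensitive cell 11. That insensitive cell also held Trpm2 at 43.7 CPM, and both Trpa1 cells were at 10 CPM or more of Slc17a6, the vesicular glutamate transporter of the hypothalamus.

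**Figure D2:**
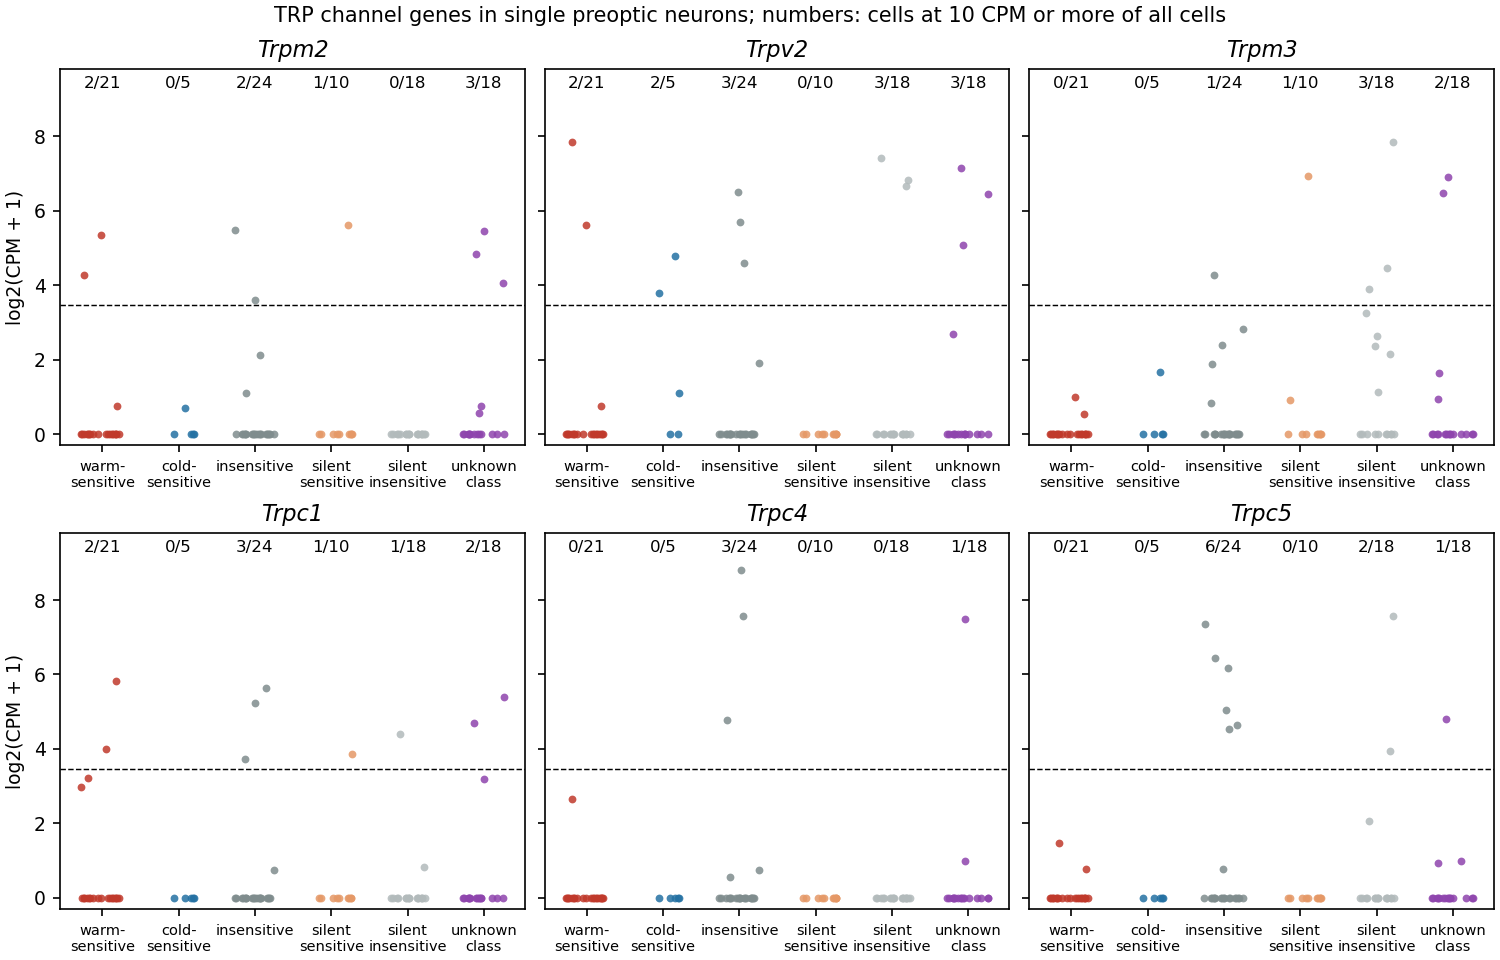
Level of 6 TRP genes in every cell, as log2(CPM + 1), by temperature class; each point is 1 cell, the dashed line marks 10 CPM, and the numbers above give cells at or over it of all cells. Trpc4 points above the line lie in insensitive and unknown cells, and Trpc5 points above it in insensitive, silent insensitive and unknown cells. Those of Trpm2, Trpv2 and Trpc1 lie in sensitive and insensitive classes alike.

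Of the TRPC genes, Trpc1, whose product joins with TRPC4 and TRPC5 in mixed channels, lies on chromosome 9 from 95705082 to 95750375 on the minus strand. Warm-sensitive cells held 55.3, 14.9, 8.39 and 6.90 CPM in 4 cells, cold-sensitive cells none, and silent sensitive cells 13.5 CPM in 1. Insensitive cells held 48.5, 36.3, 12.2 and 0.682 CPM in 4 cells, and silent insensitive cells 20.1 and 0.762 CPM in 2. Warm-sensitive and insensitive cells overlapped over the whole range. Trpc1 reached 10 CPM in 8.33% of sensitive and 9.52% of insensitive cells.

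Trpc4, on chromosome 3 from 54156035 to 54318471 on the plus strand, was high in few cells. It had 7 counts in 1 warm-sensitive cell, at 5.26 CPM, and no count in cold-sensitive, silent sensitive or silent insensitive cells. Insensitive cells held 447.4 CPM in cell 4, 189.1 CPM in cell 13, 26.6 CPM in cell 21 and 1 count in each of 2 further cells. One cell of unknown class held 177.6 CPM. The 447.4 CPM of insensitive cell 4 was the highest level of any of the 10 genes in any cell.

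Trpc5, for which responses to cooling are known from mouse sensory neurons, lies on chromosome X from 144381671 to 144688180 on the minus strand. Sensitive cells held almost none: warm-sensitive cells had 2 counts in cell 18 and 1 count in cell 9, at 1.75 and 0.699 CPM, and 0 of 5 cold-sensitive and 0 of 10 silent sensitive cells had a count. Insensitive cells held 161.5, 85.8, 71.5, 32.2, 23.7, 22 and 0.714 CPM in 7 of 24 cells. Silent insensitive cells held 188.3, 14.4 and 3.18 CPM in 3 of 18 cells. At 10 CPM or more, Trpc5 was found in 0 of 36 sensitive cells (0%, 0 to 9.74%), against 8 of 42 insensitive cells (19%, 8.6 to 34.1%). The summed level was 0.061 CPM in sensitive cells (0.0126 to 0.178), from 3 counts, and 16.1 CPM in insensitive cells (15.1 to 17.1), from 1000 counts. A single insensitive cell held 28.5% of those 1000 counts, and the intervals of the summed levels leave out the spread between cells. The classes still overlap, because 32 of 42 insensitive cells held no Trpc5 count either. The 9 cells at 10 CPM or more of Trpc5 had 491869 to 2141660 counts outside Rn45s, beside a median of 561852 over all cells, and 2 of them lay below that median. With all cells ordered by that depth in 4 sets of 24, from shallow to deep, a Trpc5 count was found in 2, 3, 5 and 5 cells. Thinned to 100000 counts outside Rn45s, 2 of 35 sensitive and 9 of 42 insensitive cells kept a count. Trpc5os, a gene within the Trpc5 locus on the opposite strand, shares no exon base with it.

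The comparison of all sensitive with all insensitive cells asks which genes mark temperature-sensitive neurons. A gene entered where at least 5% of the pooled cells of both groups, and at least 2 cells, reached 10 CPM, and it was called lower or higher where the share differed by 10 percentage points or more. Of the 10 TRP genes 5 entered, of which 1, Trpc5, was called lower and 0 higher. Trpm8, Trpa1, Trpv1, Trpc4 and Trpm4 did not enter. Of the 9535 genes that entered, 40.6% were called lower and 0.902% higher, so a count of 1 in 5 is not above that of all genes. The difference of Trpc5 was -19 points, and 15.1% of all genes were as low or lower. A gene at 0 of 36 sensitive cells could enter only with at least 4 of 42 insensitive cells, or -9.52 points. The direction of the Trpc5 difference therefore followed from the entry rule and its 0 sensitive cells. Within title letters, a possible batch, the Trpc5 difference was -21.9 points, and with DESeq2 size factors -9.52 points, which ends the call. Its mean of log2(CPM + 1) was 0.06 in sensitive and 1.16 in insensitive cells, a difference of -1.09, beside -0.49 for the median gene. This log2 difference came to -0.94 without silent insensitive cell 13 or without insensitive cell 24, and to under 1 in size without any 1 of 5 cells. The other 4 entering genes differed by 3.57 points (Trpm2), -1.19 (Trpc1), -3.17 (Trpv2) and -6.75 points (Trpm3), beside -7.94 points for the median gene. The sign turned for Trpc1 with TMM (4.37 points) and for Trpm3 with DESeq2 size factors (0.397 points). For Trpv2 it turned when thinned to 100000 counts (2.86 points) but not to 200000 counts (-4.36 points), with any count taken as detection. Trpm2 lay between 1.19 and 6.28 points over the settings used and at 0.952 points without warm-sensitive cell 8. Of the neuronal markers 6 of 9, and of the microglial ones 4 of 11, were also called lower in sensitive cells, and their part in the result was not tested. A Trpm3 count was found in 13.9% of sensitive and 31% of insensitive cells. At 1 or 5 counts, without Rn45s in the totals, thinned, and without cells over 75% Rn45s, Trpm3 differed by -10.5 to -25.9 points. In those settings it was called lower.

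Between 21 warm-sensitive and 24 insensitive cells, 5 TRP genes entered, 2 were called lower and 0 higher. The background was 61.2% of 8874 genes lower and 2.48% higher. Trpc5 was at 0% in warm-sensitive and 25% in insensitive cells, and Trpc4 at 0% in warm-sensitive and 12.5% in insensitive cells, where the median gene differed by -12.5 points. Trpc4 thus sat at the median gene, and 21% of all genes were as low as Trpc5 or lower. A gene at 0 of 21 warm-sensitive cells could enter only with at least 3 of 24 insensitive cells, which is already -12.5 points. The call of Trpc4 and Trpc5 as lower therefore followed from the entry rule and their 0 warm-sensitive cells. Without insensitive cell 4, 13 or 21 the difference of Trpc4 was -8.7 points and no longer called. With DESeq2 size factors it was -8.33 points, and that of Trpc5 -12.5 points; thinned to 100000 counts, Trpc5 differed by -15 points. Of 9 neuronal markers 7 were called lower in warm-sensitive cells, as were 6 of 11 microglial ones, with 1 higher. Trpm2 differed by 1.19 points, Trpv2 by -2.98 and Trpc1 by -2.98 points, and each of these signs turned under at least 1 other scaling, threshold or depth.

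Against the same 24 insensitive cells, the 5 cold-sensitive cells showed 5 TRP genes that entered, 3 called lower and 1 higher, beside 37.8% and 23.8% of 9714 genes. The comparisons share those insensitive cells. Trpv2 was higher, at 40% in cold-sensitive (5.27 to 85.3%) and 12.5% in insensitive cells (2.66 to 32.4%), a difference of 27.5 points that 5.49% of all genes matched or passed. It rests on 2 cells: without cold-sensitive cell 1 or cell 3 the difference was 12.5 points, and with DESeq2 size factors it turned to -8.33 points. Thinned to 100000 counts, where any count was taken as detection, it was 47.5 points and took in cold-sensitive cell 4, with 1 count. Thinned to 200000 counts it was 27.5 points. Microglial markers moved with this contrast, since 8 of 11 were called higher and 1 lower, and their sums ran from 9.25 to 11555 CPM (median 2785) in cold-sensitive and from 3.40 to 16022 CPM (median 496) in insensitive cells. Tmem119 reached 10 CPM in no cold-sensitive cell. In the cold-sensitive cells with 26.7, 12.8 and 1.16 CPM of Trpv2 these sums were 360.4, 11555 and 9.25 CPM, and in the 2 cells without it 8106 and 2785 CPM. Trpc5 was lower, at 0% in cold-sensitive and 25% in insensitive cells, as were Trpc4 and Trpc1, each at 0% in cold-sensitive and 12.5% in insensitive cells. For each, the exact upper bound at 0 of 5 cells is 52.2%. A gene at 0 of 5 cold-sensitive cells could enter only with at least 2 of 24 insensitive cells, or -8.33 points. Trpc5, Trpc4 and Trpc1 thus entered through insensitive cells alone, and the entry rule fixed the direction of their differences. Without insensitive cell 15, 19 or 23 the difference of Trpc1 was -8.7 points, as was that of Trpc4 without insensitive cell 4, 13 or 21, and neither was then called. Trpm2 differed by -8.33 points, and by -13.3 to 3.33 points over the other settings. DESeq2 size factors brought Trpc5 to -12.5 points and Trpc1 and Trpc4 to -8.33 points, and within title letters Trpc4 was at -3.33 points.

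In silent sensitive against silent insensitive cells 4 TRP genes entered, 2 were called lower and 0 higher, beside 46% and 10.2% of 8546 genes. Trpv2 was at 0% in silent sensitive and 16.7% in silent insensitive cells, and Trpc5 at 0% in silent sensitive and 11.1% in silent insensitive cells, against -6.67 points for the median gene. A gene at 0 of 10 silent sensitive cells could enter only with at least 2 of 18 silent insensitive cells, or -11.1 points. Both calls as lower therefore followed from the entry rule and those 0 silent sensitive cells. Without silent insensitive cell 12 or 13 Trpc5 differed by -5.88 points and was no longer called, nor was it with TMM, DESeq2 or deposited scaling (-5.56 points) or within letters (-7.14 points). Without any 1 of its 3 cells Trpv2 differed by -11.8 points. Trpc1 was at 10% in silent sensitive and 5.56% in silent insensitive cells, and its sign turned within letters (-2.38 points). Trpm2 did not enter. Of 11 microglial markers 6 were called lower in silent sensitive cells.

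Warm-sensitive against cold-sensitive cells gave 3 entering TRP genes, 1 lower and 0 higher, beside 57.4% and 12.6% of 7414 genes. Trpv2 was at 9.52% in warm-sensitive and 40% in cold-sensitive cells, a difference of -30.5 points, or -15.5 points without cold-sensitive cell 1 or 3. With DESeq2 size factors it was 4.76 points. Of the 10 microglial markers that entered, 10 were called lower in warm-sensitive cells. Trpm2 and Trpc1 were each at 9.52% in warm-sensitive and 0% in cold-sensitive cells, a difference just short of 10 points.

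**Figure D3:**
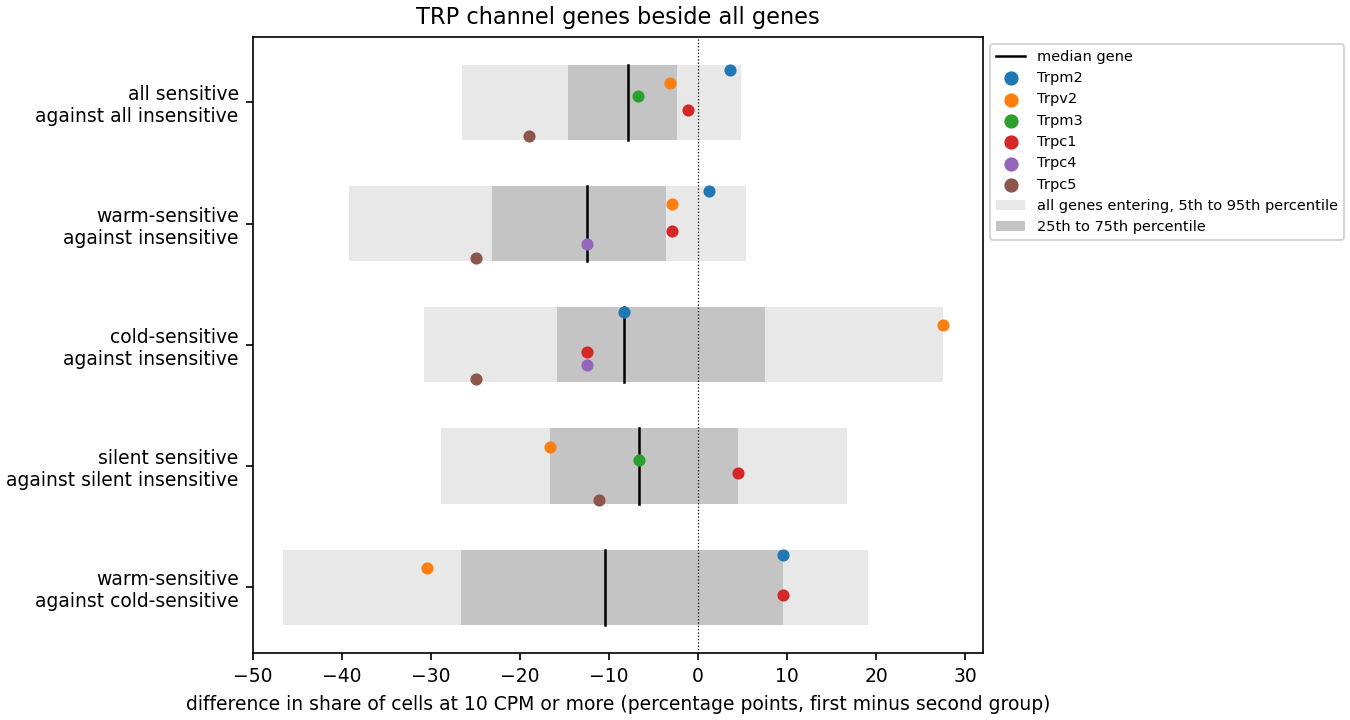
Difference in the share of cells at 10 CPM or more, in percentage points, for the TRP genes that entered each of 5 comparisons (points; rows name the group first and the group it is set against), over the distribution of all entering genes (light bars, 5th to 95th percentile; dark bars, 25th to 75th; black line, median gene). Trpc5 lies left of the median gene in the 4 comparisons it entered. In each of these it was at 0% in the first group, so it could only lie below 0. Trpv2 lies to the right for cold-sensitive cells at 27.5 points.

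Cells differed in how many of the 10 genes they held. A count of at least 1 was found in 52.4% of warm-sensitive cells (11 of 21), 4 of 5 cold-sensitive, 4 of 10 silent sensitive, 70.8% of insensitive (17 of 24) and 9 of 18 silent insensitive cells. In all sensitive cells the share was 52.8% (35.5 to 69.6%) and in all insensitive cells 61.9% (45.6 to 76.4%), or 45.7% in sensitive and 54.8% in insensitive cells after thinning to 100000 counts outside Rn45s. At 10 CPM or more, 10 of 36 sensitive and 19 of 42 insensitive cells held at least 1 of the genes. No sensitive cell held more than 2 of the 10 genes, while 5 insensitive or silent insensitive cells held 3 or 4. The number of TRP genes with a count went with the number of all genes detected (Pearson r = 0.53 over 96 cells, which differ in depth) and less with log10 counts outside Rn45s (r = 0.21). With cells ordered by counts outside Rn45s in 4 sets of 24, the sets held 14, 29, 27 and 25 pairs of gene and cell with a count.

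**Figure D4:**
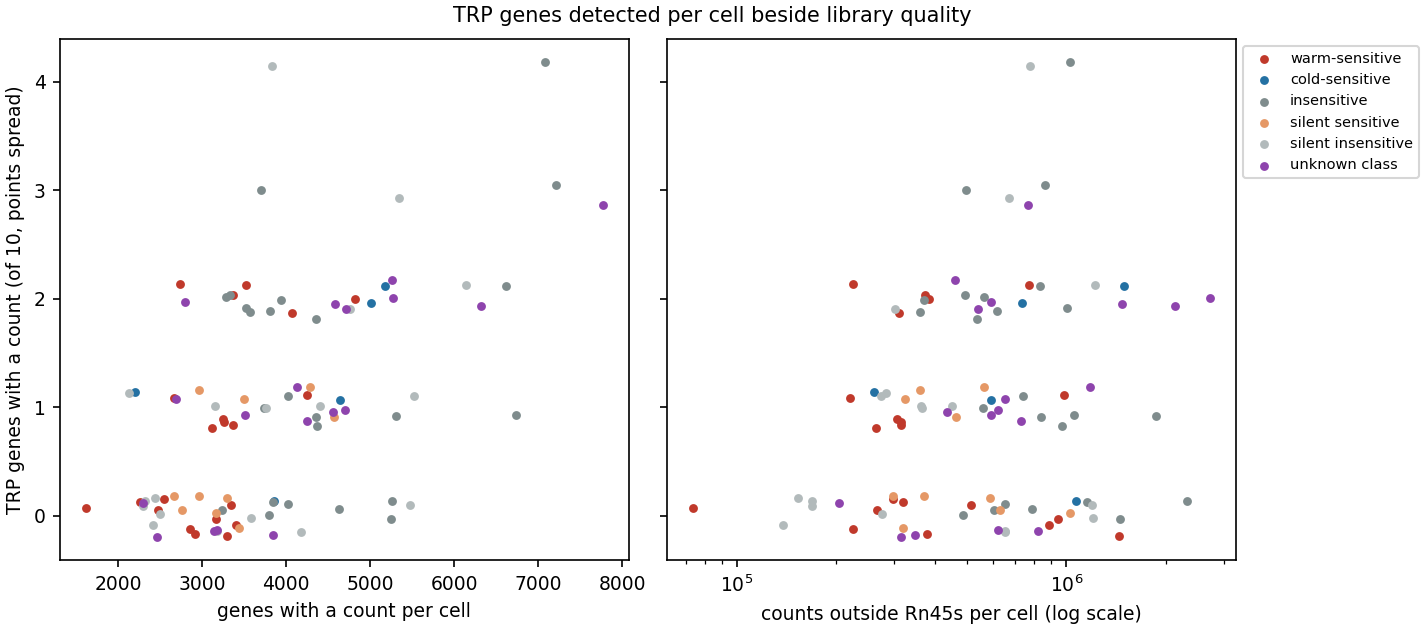
Number of the 10 TRP genes with a count in each cell (points, spread slightly up and down) against the number of genes with a count (left) and the counts outside Rn45s on a log scale (right), coloured by temperature class. Cells with 3 or 4 TRP genes lie among insensitive, silent insensitive and unknown cells.

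Some cells held several TRP genes at 10 CPM or more. Silent insensitive cell 13 held Trpm3 at 230.2, Trpc5 at 188.3 and Trpv2 at 112.1 CPM. Insensitive cell 15 held Trpv2 at 50.9, Trpc1 at 36.3 and Trpm2 at 11.2 CPM. Insensitive cells 4 and 13 each held both Trpc4 and Trpc5, whose products can join in 1 channel. These were 2 of the 4 cells at 10 CPM of Trpc4 and 2 of the 9 at 10 CPM of Trpc5. Trpm2 and Trpv2 shared 3 cells at 10 CPM, of 8 and 13. Trpm2 and Trpm3, with 14 and 22 cells above 0, shared none, where the product of their shares gives 3.21 cells. This is 1 of many pairs of the 10 genes, and the difference was not tested.

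Markers of GABA and of glutamate neurons were read in the cells with a TRP gene. Gad2 was at 10 CPM or more in 13 of 17 Trpv2 cells, 11 of 15 Trpc5 cells, 9 of 14 Trpc1 cells and 13 of 22 Trpm3 cells, 10 of 14 Trpm2 cells and 3 of 8 Trpc4 cells, against 53 of all 96. Both Trpm4 cells, the 1 Trpm8 cell and 1 of 2 Trpa1 cells also reached 10 CPM of Gad2. Gad1 was at 10 CPM or more in 11 of 17 Trpv2 cells, 9 of 15 Trpc5 cells and 8 of 14 Trpc1 cells. It was so in 13 of 22 Trpm3 cells, 10 of 14 Trpm2 cells and 5 of 8 Trpc4 cells, also against 53 of all 96. Both Trpm4 cells, the 1 Trpm8 cell and 0 of 2 Trpa1 cells reached 10 CPM of Gad1. For Trpc4 the share was thus above that of all cells by Gad1 and below it by Gad2. Among the 15 Trpc5 cells, Slc32a1, the vesicular GABA transporter, was at 10 CPM or more in 6, against 13 of 96, Slc17a6 in 8, against 35 of 96, and Calb1, a calcium-binding protein, in 13, against 54 of 96. In these 15 cells the median sum of 9 neuronal markers was 5756 CPM, against 3354 CPM over all cells. The part of that difference in these shares was not tested. Calb1, Slc32a1, Cx3cr1 and Ttr were named after their values were seen. Trpv2 was the only one of the 10 genes in enough cells to look for genes of like pattern. Over all 96 cells the closest of 6835 genes were 5330434G04Rik (r = 0.54), Lgi1, which encodes a secreted synaptic protein (r = 0.49), and Cxadr, a cell adhesion protein (r = 0.48). Of the 13 cells at 10 CPM of Trpv2, 10 also reached 10 CPM of 5330434G04Rik, 8 of Lgi1 and 9 of Cxadr.

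Other genes of the family and of its signalling were read in the same way. Of 18 further TRP genes, 15 had a count, and Mcoln1, a lysosomal channel, was found at 10 CPM in 32 of 96 cells, more than any of the 10 genes above. It was at 33.3% in sensitive and 28.6% in insensitive cells. Between all sensitive and all insensitive cells 4 of these 18 genes entered and 0 were called in either direction, beside the 40.6% and 0.902% of all genes. Of 17 genes that couple Gq-linked receptors to TRPC channels, 12 entered, 7 were called lower and 1 higher. The G protein subunit Gna11 was at 22.2% in sensitive and 50% in insensitive cells. The protein kinase C gene Prkcb was at 16.7% in sensitive and 52.4% in insensitive cells, and the diacylglycerol kinase gene Dgkg at 5.56% in sensitive and 31% in insensitive cells. Of 7 genes of ADP-ribose and NAD metabolism, which lies upstream of TRPM2, 4 entered and 2 were called lower. Those were the ADP-ribose hydrolase Nudt9, at 11.1% in sensitive and 38.1% in insensitive cells, and the deacetylase Sirt2, at 13.9% in sensitive and 38.1% in insensitive cells. Of 5 genes of store-operated calcium entry, 5 entered and 1 was called lower, and of 11 calmodulins and scaffolds 7 entered and 0 were called. Of 13 other channels with a thermal response 10 entered and 5 were called lower. The potassium channel Kcnk2 (TREK-1) was at 5.56% in sensitive and 26.2% in insensitive cells.

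Against the 61.2% of all genes lower and 2.48% higher in warm-sensitive cells, 10 of 12 entering genes of Gq coupling were called lower and 1 higher. All 4 entering genes of store-operated entry were lower, among them the calcium sensor Stim1, at 4.76% in warm-sensitive and 29.2% in insensitive cells. Of 13 other channels with a thermal response 9 entered, 6 were called lower in warm-sensitive cells and 1 higher. The higher one was the calcium-activated chloride channel gene Ano1, whose channel opens with heat in sensory neurons. Ano1 was at 28.6% in warm-sensitive and 4.17% in insensitive cells. Mcoln1 was at 38.1% in warm-sensitive and 33.3% in insensitive cells. No other TRP gene was called in this comparison, of 4 that entered.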

How the data were processed

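Counts per gene and cell were deposited by the authors as whole numbers; per the submitters' processing notes, FastQC, STAR, edgeR and mm10 were used, and no version is named there. Neither the counter nor its strand setting is stated in what was used here. The normalized signal values the authors deposited equal the counts divided by the cell's total and a factor of 0.177 to 2.49, whose origin is not stated. They served as an alternative.

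CPM is each count per 1000000 counts of its cell, with Rn45s kept in the total. Log2 differences are of the mean of log2(CPM + 1), on which differences of low genes come out too small. They were called at 1 or more. All 96 cells were kept, and the values of no 2 cells were identical. A limit for a count of 0 is 3 counts or cells; exact upper bounds of shares stand beside it. Classes came from the labels. The title letter, 8 in all, was treated as a possible batch.

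The 10 genes are always named. Of other lists, those reaching 10 CPM in 20% of cells, or differing by 20 points or more in a comparison with at least 10 cells a group, could be named, at most 6 a list. Genes of like pattern were taken for genes at 10 CPM in at least 10 cells, among genes found in 10 to 90% of cells. Genes and lists were chosen with earlier results of these data known.

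Coordinates and exon lengths are from GENCODE M21 (mm10). Of all 50-base words in a gene's transcripts, at most 6.28% (Trpm8) occurred in another gene. Alternatives were other detection thresholds, scalings, pseudocounts, thinning, cell and gene filters, values within letters, and each cell left out. Thinning was a single random draw at each depth, and a gene with any count left was then taken as detected. The measures were tested on simulated data. No result of that test is given here. It is not used as support for genes found in as few cells as the TRP genes. TMM came from edgeR 4.0.16 and size factors from DESeq2 1.42.0 in R 4.3.3. Other steps used Python 3.11.15 with pandas 2.3.3, numpy 2.4.6, matplotlib 3.10.9 and scipy 1.17.1.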

Additional observations from a re-analysis of the deposited data

Results flagged for a closer look

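In classes of 4 to 10 cells, 1 cell lay far from the others for 6 of the 7 gene and class pairs with a count. In cold-sensitive cells these were Trpm2 at 0.639 CPM, Trpm3 at 2.19 CPM and Trpm4 at 8.94 CPM, each with the other 4 cells at 0. In silent sensitive cells they were Trpm2 at 48.0 CPM and Trpc1 at 13.5 CPM, with the other 9 cells at 0, and Trpm3 at 120.7 CPM, with 1 other cell at 0.895 CPM. Where all other cells are at 0, a single cell with a count is enough to stand apart, so for such genes this says no more than that 1 cell held the RNA. The limit used is meant to mark about 1 in 20 groups by chance, a rate that does not hold for groups made mostly of zeros.

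Trpv2 stood on opposite sides in 2 contrasts. Its share at 10 CPM or more differed by 27.5 points in cold-sensitive against insensitive cells and by -16.7 points in silent sensitive against silent insensitive cells. The difference between these contrasts was not tested.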

How the results depend on the processing

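Counts of called TRP genes are small, and 1 gene or 1 cell moves them. For all sensitive against all insensitive cells, 1 gene was lower in the values reported. With Trpm3 added it became 2 at 1 or 5 counts, without Rn45s and thinned to 100000 or 200000 counts. The same held without cells over 75% Rn45s and at 5 points. It became 0 with DESeq2 size factors and at 20 points. For warm-sensitive cells the 2 lower genes became 1 with DESeq2, without Rn45s and at 20 points, and 3 at 1 count, thinned to 100000 and within title letters. For cold-sensitive cells the 3 lower genes became 1 with DESeq2 and at 20 points, 4 at 5 counts and at 5 points, and 5 when thinned to either depth. The 1 higher gene became 2 at 1 count and thinned to 200000, and 0 with DESeq2. For silent sensitive cells the 2 lower genes became 1 with TMM, DESeq2, the deposited values and within title letters, 0 at 20 points, and 3, with Trpm3 added, at 1 count, at 5 counts, without Rn45s, thinned to either depth, without cells over 75% Rn45s and at 5 points. The 0 higher became 1 with no filter on low genes. For warm-sensitive against cold-sensitive cells the 1 lower gene became 2 at 1 count and 0 with DESeq2. The 0 higher became 1 at 1 count, at 5 counts, with TMM, without Rn45s, with the deposited values and within letters, 2 without cells over 75% Rn45s and at 5 points, and 3 when thinned. With each cell left out in turn, lower genes ran from 1 to 2 for warm-sensitive, from 2 to 3 for cold-sensitive and from 1 to 3 for silent sensitive cells (3 without silent sensitive cell 7), and higher genes from 0 to 2 for warm-sensitive against cold-sensitive cells, where Trpm2 and Trpc1 lie at 9.52 points beside a limit of 10. The cause of the other changes was not tested.

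For the 6 log2 differences of 1 or more, 255 of 283 alternatives kept sign and size, 28 fell under 1 and 0 changed sign. DESeq2 size factors moved the median gene of all sensitive against all insensitive cells to -0.07 on the log2 scale, against -0.49 in CPM, and Trpc5 to -0.60. No paired analysis was possible because no result comes from a test and the cell numbers only name cells. Depth limits the reading of genes at 0, most of all with 5 cold-sensitive cells.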
